A study of Equus caballus with 12 samples.

Results

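miR-378 was followed in the heart, liver and lung of the horse. It is the entry eca-miR-378, 1 of 294 known horse miRNAs in the table. It was chosen by name and not by its level, though earlier results of these data were known. Small RNA had been sequenced from the left ventricle, the right liver lobe and the right lung (its caudal lobe) of 4 healthy cold-blooded stallions of 1 to 2 years (horses 27, 30, 32 and 34). Each horse gave 1 library per tissue, which makes 12 libraries and 4 per tissue. No animal was treated, and all tissue was collected at slaughter and kept in RNA preservative. The values are normalized counts, that is, reads per miRNA divided by a size factor of the library. The samples are pieces of whole tissue, so a tissue with fewer cells that hold a miRNA and a tissue whose cells hold less of it cannot be told apart.

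miR-378 is encoded in an intron of PPARGC1B, the gene of the coactivator PGC-1β, which with its relative PGC-1α drives mitochondrial and fatty acid oxidation genes. It is thought to be made from the same primary transcript as its host. In mammals it is known from tissues of high oxidative metabolism such as heart, skeletal muscle and brown fat, and has been tied to lipid metabolism and cardiac muscle growth. Like other miRNAs, it pairs with messenger RNAs mainly through its seed, bases 2 to 8, so isoforms with another 3′ end keep the same seed.

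In RefSeq's horse gene table (assembly TB-T2T), the MIR378 hairpin of 66 bases lay inside the span of PPARGC1B. It was the only miRNA gene there (1 of 1), and 0 other genes overlapped it. Being inside a protein-coding gene is common: 425 of the 699 horse miRNA genes in that table (60.8%) were. The table gives gene spans only, so intron and exon could not be read from it. Strand was not compared, so a miRNA gene on the strand opposite to its host would be counted too. The same holds for the other host genes named below.

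The table also holds 335 entries that are named by their sequence rather than by a miRNA. Of these, 12 (3.58%) carried the heptamer CUGGACU at bases 2 to 8, the seed by which miR-378 is generally known and which was not read from these files. The 5 most abundant are shown because they hold 98.5% of the summed level of the 12 and differ from each other only outside the seed. Capitals mark the seed.
entry 1: aCUGGACUuggagucagaa
entry 2: aCUGGACUuggagucagaagu
entry 3: aCUGGACUuggagucagaaa
entry 4: aCUGGACUuggaaucagaaga
entry 5: aCUGGACUuggagucaggagguu
Positions were counted from 1 at the 5′ end of entry 1, the most abundant. Entries 2 and 3 hold all 19 bases of entry 1 and run on by 2 and 1 bases. Entry 4 differs by G13A and entry 5 by A18G. Their levels follow those of miR-378 itself below. Only the seed was matched to miR-378. Whether these entries are forms of miR-378 or other miRNAs with the same seed was not tested.

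Read numbers are not in the table and were derived from the steps of its values, taking the lowest value of a library as the minimum of 6 reads. They rest on that reading of the steps, and no test used them. So derived, the table holds 3066869 to 9355513 reads per library, and miR-378 had 89213 to 115349 reads in each heart, 5758 to 14942 in each liver and 1993 to 6595 in each lung. The tissue labels were checked with marker miRNAs. The summed level of the 7 striated muscle miRNAs in the table, such as miR-1, was at least 5460483 and at most 8414016 in heart, with 8693 to 12572 for lungs and 1511 to 6447 for livers. The 5 hepatocyte miRNAs, such as miR-122, summed to 1448596 to 1965095 in liver, 52567 to 166192 in heart and 69273 to 295075 in lung. The 6 epithelial miRNAs, such as miR-200c, summed to 66725 to 83600 in lung, 5369 to 7499.8 in liver and 317 to 1008 in heart. Each set was highest in the tissue it marks, without overlap. Of the muscle set, miR-208a and miR-208b were listed at 0 in every lung, and these and miR-206 in every liver.

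miR-378 was a heart miRNA in these horses. Its normalized count in heart was 143405 in horse 27, 158695 in horse 30, 99724 in horse 32 and 175636 in horse 34 (mean 144365 ± 32542, SD, n = 4). In liver it was 10652, 12022, 8758 and 9743 in the same order of horses (mean 10294 ± 1388, SD, n = 4). In lung it was 4319, 4078, 4506 and 2255 (mean 3789 ± 1038, SD, n = 4). The lowest heart lay far above the highest liver, and the lowest liver above the highest lung, so no tissues overlapped. The order heart over liver over lung held in 4 of 4 horses. Of all 256 known miRNAs tested, the means of 19 (7.42%) came in this order.

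**Figure D1:**
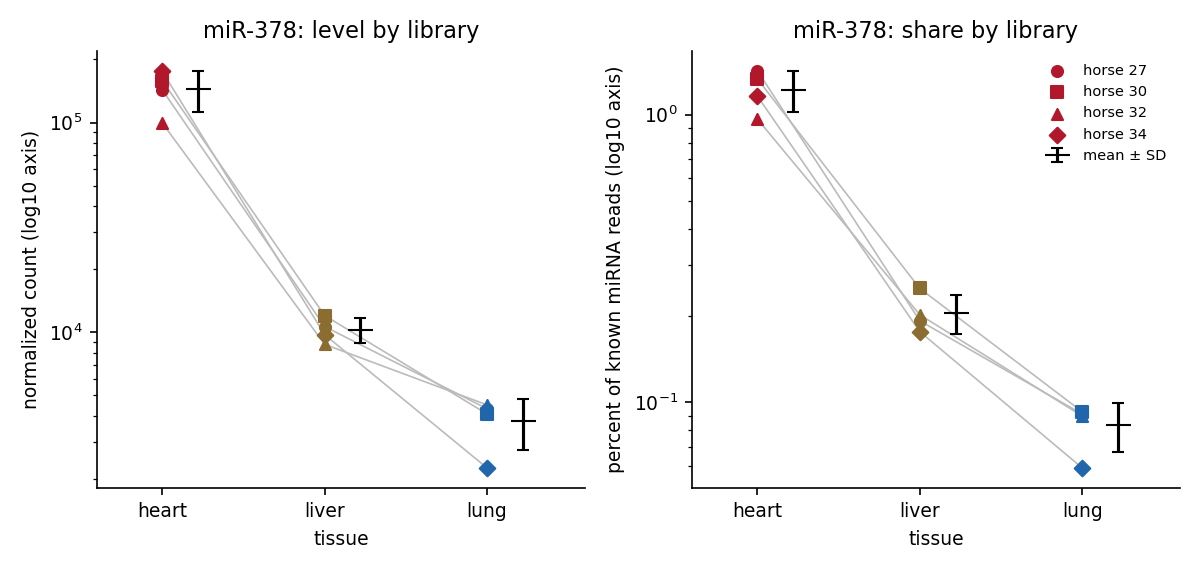
miR-378 in each library as a normalized count (left) and as a percent of all reads of known miRNAs (right), both on log10 axes. Symbols mark the horses, grey lines join the tissues of 1 horse and bars give the mean ± SD of 4 libraries. The 4 hearts lie between 99724 and 175636 normalized counts, all above the livers (8758 to 12022), and the lung of horse 34 (2255) lies below the other lungs.

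In heart versus liver, miR-378 was higher in heart by a log2 fold change of 3.79 ± 0.25 (SE), that is 13.8-fold (95% interval 9.39 to 20.3; limma on log2(normalized count + 1), adjusted p = 1.36e-07, n = 4 per tissue). The ratio within a horse was 13.5 in horse 27, 13.2 in horse 30, 11.4 in horse 32 and 18.03 in horse 34. A change of this kind was common between these tissues: 120 of 256 miRNAs (46.9%) were called, meaning an adjusted p below 0.05 together with a change of 1 log2 unit or more either way, 51 of them (19.9%) higher in heart. The groups were without overlap for 134 miRNAs (52.3%). In size, miR-378 stood 20th of 256 from the side higher in heart.

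In lung versus heart, miR-378 fell by 5.27 ± 0.25 (SE) on the log2 scale, so that heart was 38.6-fold higher (95% interval 26.2 to 56.8; limma, adjusted p = 1.26e-08, n = 4 per tissue). The ratio of heart over lung within a horse was 33.2, 38.9, 22.1 and 77.9 in horses 27, 30, 32 and 34. Horse 34 had both the highest heart and the lowest lung. Here 99 of 256 miRNAs (38.7%) were called, 49 of them (19.1%) lower in lung, and 114 (44.5%) had groups without overlap. miR-378 stood 10th from the side lower in lung.

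The smallest difference was that between lung and liver. miR-378 fell by 1.48 ± 0.25 (SE) on the log2 scale in lung versus liver, so that liver was 2.80-fold higher (95% interval 1.90 to 4.11; limma, adjusted p = 0.000415, n = 4 per tissue). The ratio of liver over lung was 2.47, 2.95, 1.94 and 4.32 in horses 27, 30, 32 and 34. In this comparison 132 of 256 miRNAs (51.6%) were called, 68 (26.6%) lower in lung and 135 (52.7%) without overlap. miR-378 stood 65th from the side lower in lung, well inside the body of differences between these tissues. The 3 comparisons share their libraries in pairs and are not independent of each other.

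A share of reads does not rest on the size factors. miR-378 took 1.42% of the reads of known miRNAs in the heart of horse 27, 1.33% in horse 30, 0.965% in horse 32 and 1.16% in horse 34 (mean 1.22% ± 0.201, SD, n = 4). In liver it took 0.192%, 0.249%, 0.202% and 0.176% (mean 0.205% ± 0.0313, SD, n = 4). In lung it took 0.0910%, 0.0927%, 0.0896% and 0.0592% (mean 0.0831% ± 0.0160, SD, n = 4). The shares kept the order heart, liver, lung in 4 of 4 horses, again without overlap. In log2 units heart exceeded liver by 2.57 ± 0.16 (SE), and lung lay below heart by a difference of -3.88 ± 0.20 and below liver by one of -1.31 ± 0.19. Each of the 3 had an adjusted p of 0.0286 in an exact two-sided permutation test of 4 against 4, the smallest that the test can give.

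The fold between heart and the other tissues was therefore smaller in shares than in normalized counts. The ratio of mean heart to mean liver was 5.96 as a share and 14.02 as a normalized count, and that of heart to lung was 14.7 and 38.1. The ratio of liver to lung changed little, from 2.72 to 2.46. In heart, miR-1, the main miRNA of striated muscle, alone took 47.0% of the reads of known miRNAs, which lowers the share of every other heart miRNA. With each library set to the same total of known miRNAs, the 256 tested miRNAs had a median of -1.24 on the log2 scale in heart versus liver, against -0.23 as deposited. The call counts then split differently: 164 miRNAs were called, 26 of them (15.9%) higher in heart, against 51 of 120 (42.5%). In lung versus heart, 124 of 139 calls (89.2%) were higher in lung at equal totals, against 50 of 99 (50.5%). The fold change of miR-378 relative to the median of all tested miRNAs moved less, from 4.02 to 3.81 in heart versus liver and from -5.27 to -4.97 in lung versus heart. With equal totals, the order of means heart over liver over lung was left in 2 of 256 miRNAs (0.781%), miR-378 and miR-1543, the latter named after its values were seen.

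**Figure D2:**
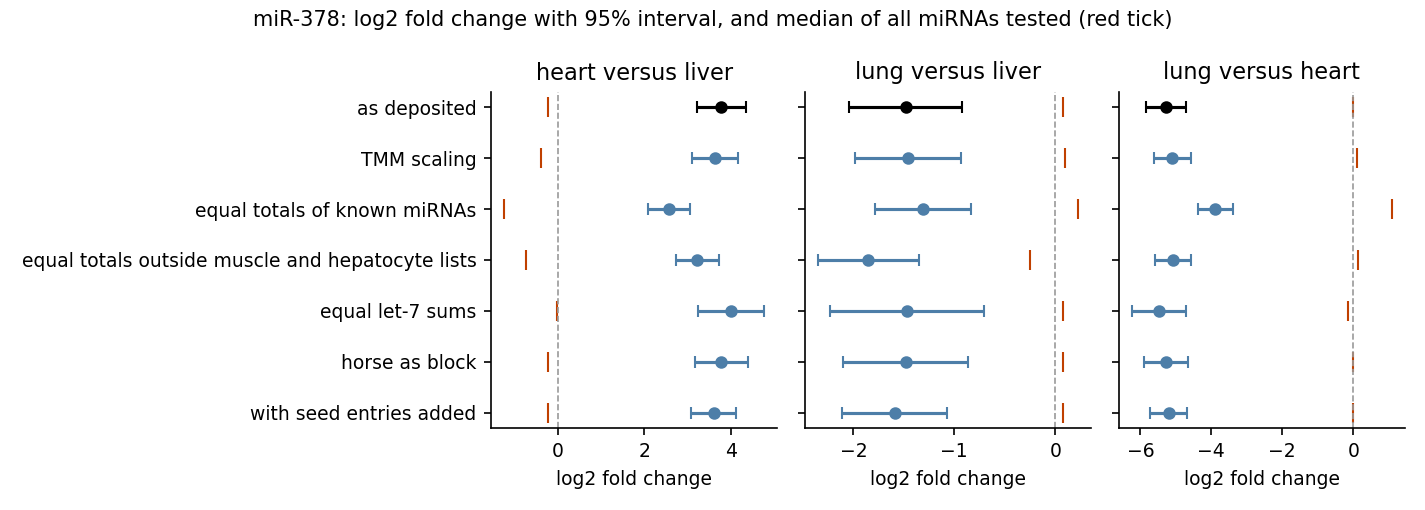
Log2 fold change of miR-378 (points, with 95% intervals from limma) in each comparison as deposited and under other scalings, with the horse as a block and with the seed entries added. Red ticks give the median of all miRNAs tested in each fit, and the horizontal axes differ between panels. No interval for miR-378 reaches 0, and at equal totals the heart versus liver value is 2.57.

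miR-378 ranked 14th among the known miRNAs of heart by mean level, 36th in liver and 67th in lung. By library the ranks were 11, 14, 18 and 13 in heart, 35, 32, 38 and 36 in liver, and 65, 61, 60 and 74 in lung. The 13 miRNAs above it in heart took 86.5% of the reads of known miRNAs, the 35 above it in liver 94.4%, and the 66 above it in lung 97.8%. In heart its level overlapped with both neighbours, miR-199a-5p above (171984 ± 23600, SD, n = 4) and miR-24 below (126094 ± 8930, SD, n = 4). In liver it overlapped with let-7d above (11124 ± 798, SD, n = 4) and miR-423-5p below (9461 ± 1929, SD, n = 4). In lung it overlapped with miR-340-5p above (3848 ± 734, SD, n = 4) and miR-1388 below (3647 ± 932, SD, n = 4). Its exact place is thus not fixed by 4 horses. In all 3 tissues 10 miRNAs ranked above it, among them let-7a, miR-26a, miR-143 and miR-100.

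**Figure D3:**
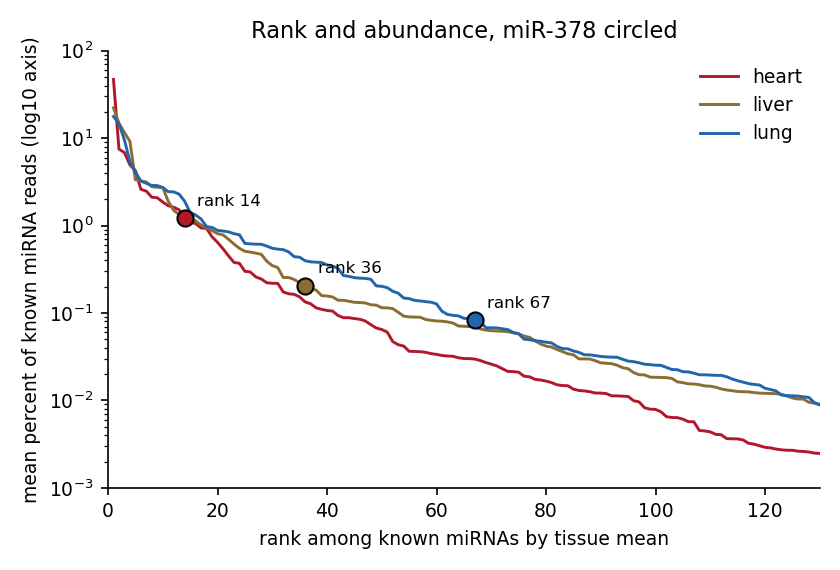
Mean percent of known miRNA reads (log10 axis) against rank by tissue mean, for the first 130 ranks of each tissue. Circles mark miR-378, at rank 14 in heart, 36 in liver and 67 in lung.

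Most of the miRNAs as abundant as miR-378 in heart were common to the 3 tissues. When the 3 tissue means were summed, heart held 91.1% of the sum for miR-378, liver 6.50% and lung 2.39%, against a median heart part of 29.9% over the 256 tested miRNAs. A larger heart part was found in 10 of the 256. Of the 13 miRNAs more abundant than miR-378 in heart, it was larger in miR-1 (99.8%), miR-133a (99.8%) and miR-499-5p (99.8%), all known from striated muscle. It was smaller in the other 10, from 29.6% in let-7a to 82.3% in miR-100. With equal totals the heart part of miR-378 was 80.9%, again with 10 of 256 above it. In liver, the mean level of miR-378 (10294) was above that of miR-1 (3362), and in lung it was below it (3789 against 8961).

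**Figure D4:**
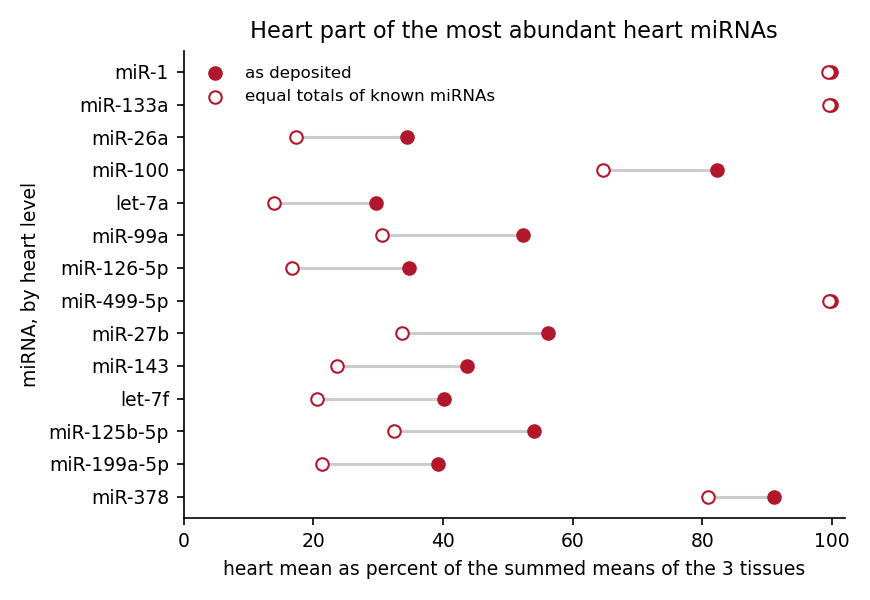
Heart mean as a percent of the summed means of heart, liver and lung for the 14 most abundant known miRNAs of heart, in the order of their heart level. Filled points use the deposited values and open points equal totals of known miRNAs. miR-378 (91.1% and 80.9%) lies between the 3 muscle miRNAs at 99.4% or more and miR-100 (82.3% and 64.6%).

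The relation of miR-378 to miR-1 differed by tissue. Per 1000 normalized counts of miR-1, heart had 22.3 to 30.8 of miR-378, lung 252 to 548 and liver 1646 to 8064. At the highest ratio seen in heart, the miR-1 in a lung library would come with 5.62 to 12.2% of the miR-378 measured there, and that in a liver library with 0.382 to 1.87%. The same arithmetic with miR-499-5p gave 2.09 to 15.1% in lung and 0.931 to 3.53% in liver, and with miR-133a 0.539 to 3.44% in liver and 9.55%, 15.8%, 10.4% and 84.0% in the lungs of horses 27, 30, 32 and 34. For the lung of horse 34 the value thus depends on the marker chosen. The arithmetic assumes that muscle RNA in lung or liver would carry the ratio of the left ventricle. The part of muscle RNA in the miR-378 of any lung or liver was not tested. Among the 4 hearts, the ratio to miR-1 spanned 1.38-fold, that to miR-499-5p 3.45-fold and that to miR-133a 5.76-fold. In liver, miR-378 was 7.83 to 11.5 per 1000 of miR-122.

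Markers of other cell types also moved between the tissues. The 2 red blood cell miRNAs in the table summed to between 66906 and 160133 in heart, with lungs at 25239 to 66840.1 and livers at 4149.8 to 6888. In heart this sum was miR-486-5p alone, which is also known from muscle. The other member, miR-144, was listed at 0 in all 4 hearts and was above 0 in 1 lung (1349.7) and 2 livers (44.4 and 163). The 5 leukocyte miRNAs ran from 30464 to 89300.2 in lung, 12462 to 21814 in liver and 11350.3 to 13414 in heart. Their members went both ways: 2 were called higher in heart than in liver, 1 lower and 2 were not called. The 3 endothelial miRNAs ran from 336150.2 to 681325 in lung, 144408 to 553619.7 in heart and 114762 to 181135 in liver. This sum was mostly miR-126-5p (heart mean 307142), which was not called in heart versus liver. miR-221 and miR-222 were called lower in heart, with log2 fold changes of -1.89 ± 0.28 and -1.99 ± 0.31 (SE, limma). In that comparison 46.9% of all 256 tested miRNAs were called. The 5 smooth muscle and mesenchymal miRNAs ran from 457185 to 545152 in heart, with lungs at 324185 to 455996 and livers at 219664 to 396244. Such a sum follows the most abundant members of its list, and all of these sums are on the deposited scale. In lung versus heart, miR-486-5p moved from -1.44 to -0.05 on the log2 scale at equal totals. Of the 5 smooth muscle and mesenchymal miRNAs, 2 were then called higher in lung than in heart and 0 lower, against 0 and 0 as deposited. Of all calls in that comparison, 89.2% were then higher in lung. The place of heart above lung in these lists thus depends on the scaling. The part of these cell types in the level of miR-378 was not tested.

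Other miRNAs that sit in genes of metabolism gave few usable values beside those of miR-378. By the same RefSeq table, miR-103, miR-107a and miR-107b lie in PANK2, PANK3 and PANK1, which encode pantothenate kinases, the first step of coenzyme A synthesis, and miR-33a lies in SREBF2, the gene of a regulator of cholesterol synthesis. Of the 4 listed miRNAs of this kind that were tested, miR-378 included, 1 was called higher in heart than in liver (miR-378) and 0 lower. In lung versus liver 2 were called lower, miR-378 and miR-107b, and in lung versus heart 1 was, again miR-378. These counts hold miR-378 itself and are no support from the other miRNAs of the list. Over all tested miRNAs, 19.9% were called higher in heart than in liver, 26.6% lower in lung than in liver and 19.1% lower in lung than in heart. Like miR-378, miR-107b was called lower in lung than in liver, with a log2 fold change of -1.24 ± 0.28 (SE, limma, adjusted p = 0.00259). The log2 fold change of miR-107b in heart versus liver was -0.94 ± 0.28 (adjusted p = 0.0142), under the fold minimum, and at equal totals it was -2.16. In lung versus heart it was -0.30 ± 0.28 (SE) and not called, and at equal totals it was 1.09, higher in lung. miR-103 and miR-107a are near-identical, and each was listed at 0 in libraries where the other was high. In the lung, miR-103 was 36505 in horse 27, 50229.8 in horse 30, 27063 in horse 32 and 0 in horse 34, while miR-107a was 33567, 0, 0 and 30697. Their single values are therefore uncertain. miR-33a was above 0 in 1 heart (8.70) and 1 lung (35.1) and was not tested.

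miRNAs in muscle myosin genes were also highest in heart. miR-208b lies in MYH7 and miR-499-5p in the span of MYH7B. Both were called higher in heart than in liver and in lung (2 of 2 tested). Over all tested miRNAs, 19.9% were called higher in heart than in liver and 19.1% lower in lung than in heart. miR-208b passed the filter through the heart libraries alone, so its calls were set by the filter and are no support. miR-208a did not pass the filter and was not tested. miR-499-5p was 141724, 215256, 340490.0 and 291587 in the hearts of horses 27, 30, 32 and 34, with 98.05 to 339 in liver and 89.4 to 382 in lung. The heart of horse 32 was thus the highest for miR-499-5p and the lowest for miR-378. miR-208b was 1741 to 2100.4 in heart and was listed at 0 in all 8 other libraries. The 2 had a median log2 fold change of 10.50 in heart versus liver, -10.49 in lung versus heart and 0.016 in lung versus liver, where neither was called. For miR-378 these were 3.79, -5.27 and -1.48.

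miRNAs known from brown and beige fat, a tissue in which miR-378 has been studied, gave calls in both directions on the deposited scale. Of the 9 tested, 2 were called higher in heart than in liver, 3 lower, and 4 were not called. Over all 256 tested, 46.9% were called, 19.9% higher in heart. Of the 3 most abundant, miR-27b was higher in heart by 2.46 ± 0.17 and miR-30c by 2.17 ± 0.24 on the log2 scale (SE, limma, adjusted p = 1.36e-07 and 8.51e-06). The third, miR-30b, was not called (0.36 ± 0.48). The 3 called lower in heart were less abundant and had log2 fold changes from -2.32 to -1.69. At equal totals miR-27b and miR-30c were at 1.25 and 0.95, and 1 of the 9 was called higher and 6 lower. In lung versus liver 4 were called higher and 3 lower, and in lung versus heart 3 higher and 2 lower, where 51.6% and 38.7% of all tested miRNAs were called. At equal totals the counts were 5 higher and 3 lower in lung versus liver, and 5 higher and 0 lower in lung versus heart, so that the direction of the latter depends on the scaling. Their median log2 fold change was -0.65 in heart versus liver, 0.95 in lung versus liver and -0.051 in lung versus heart.

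Over the 12 libraries, the level of miR-378 was most like that of heart miRNAs. Among the 255 other tested miRNAs, the highest Pearson correlations of log2(normalized count + 1) with miR-378 were those of miR-208b (0.95), miR-384 (0.94), miR-592 (0.94), miR-499-5p (0.94) and miR-1543 (0.92), and 7 were over 0.9. miR-384 and miR-592 were low, with heart means of 35.2 and 60.8, and were listed at 0 in lung and liver. Such a correlation is set mainly by the heart libraries standing apart, and the points of 1 library share its size factor. With tissue means removed, the highest were miR-92a (0.82), miR-1842 (0.82), miR-100 (0.80), miR-409-5p (0.78) and miR-493b (0.78), with a median of 0.059 over all 255. Of these, miR-1842 was low, with tissue means of 6.65 to 32.4. The lowest of the 255 correlations was -0.82, about as far from 0 as the highest, so these values single out no miRNA. With tissue means removed, miR-208b had a correlation of -0.54, so that the likeness to it lay between tissues.

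The spread of miR-378 between horses was not unusual. Its SD on the log2 scale was 0.36 in heart, 0.47 in lung and 0.19 in liver. Among the miRNAs with a mean of at least 1000 normalized counts in the tissue, the median SD was 0.46 in heart (97 miRNAs), 0.45 in lung (104) and 0.32 in liver (97). A smaller SD than that of miR-378 was found in 36 of 97 in heart, 56 of 104 in lung and 19 of 97 in liver. The heart of horse 32 lay 0.50 below the heart mean of log2 values, and its liver 0.22 below the liver mean, but its lung was 0.30 above the lung mean. Horse 34 was 0.31 above in heart and 0.70 below in lung. Horses 27 and 30 lay above the mean in each of the 3 tissues.

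The sequence-named entries with the seed showed the same order of tissues as miR-378. Their summed level was 8361, 11013, 9318 and 9679.7 in the hearts of horses 27, 30, 32 and 34 (mean 9593 ± 1098, SD, n = 4). It was 2055, 2902, 2209.7 and 1629 in the livers (mean 2199 ± 529, SD, n = 4) and 523, 432, 379 and 442 in the lungs (mean 444 ± 59.4, SD, n = 4). The groups did not overlap. Heart exceeded liver by 2.15 ± 0.19 (SE) on the log2 scale, and lung differed from heart by -4.44 ± 0.13 and from liver by -2.29 ± 0.20. Each had an adjusted p of 0.0286 in an exact two-sided permutation test, the smallest possible. These tests were chosen after the values were seen.

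Relative to miR-378 itself, the seed entries weighed more in liver than in heart. They came to 5.83%, 6.94%, 9.34% and 5.51% of the miR-378 level in the hearts of horses 27, 30, 32 and 34. In the livers they came to 19.3%, 24.1%, 25.2% and 16.7%, above every heart. In the lungs they came to 12.1%, 10.6%, 8.41% and 19.6%, which overlapped with both. The difference of -14.4 ± 2.19 percentage points (SE) between heart and liver had p = 0.0286 and an adjusted p of 0.0857 over the 3 comparisons in exact permutation tests, and so did not pass. With the seed entries added to miR-378, an alternative chosen after the values were seen, its log2 fold change was 3.61 in heart versus liver, -1.59 in lung versus liver and -5.20 in lung versus heart.

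**Figure D5:**
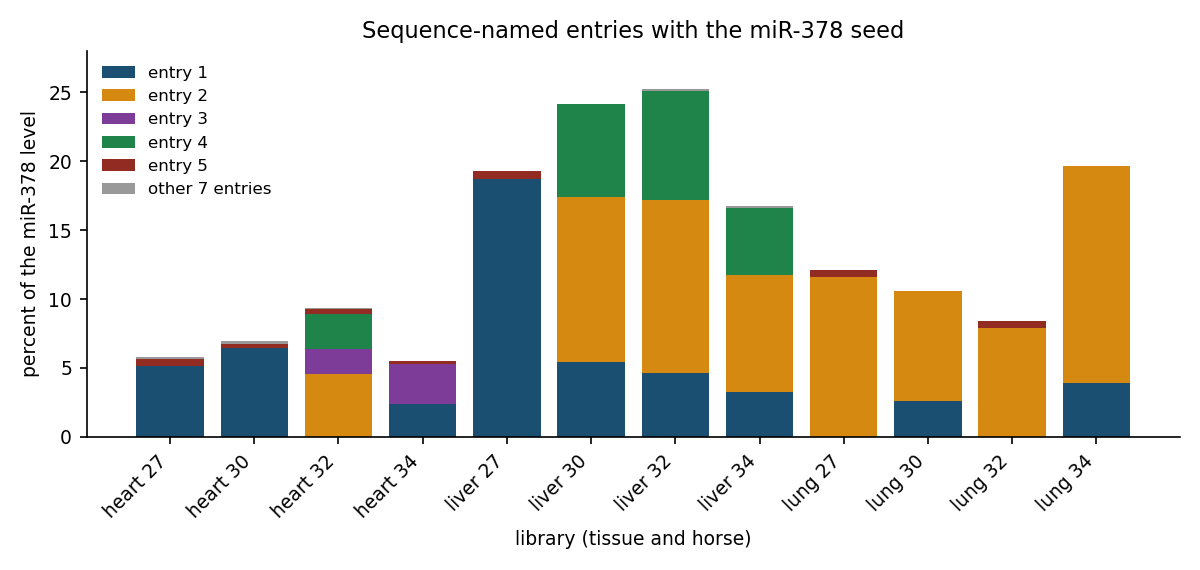
Sequence-named entries with the miR-378 seed in each library, stacked, as a percent of the miR-378 level in that library. Colours mark the 5 most abundant entries and grey the other 7. The sums are 5.51 to 9.34% in heart, 8.41 to 19.6% in lungs and 16.7 to 25.2% in livers, and the entry that holds most of the sum changes between libraries of 1 tissue.

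The entry that held most of the sum changed between libraries. Entry 1 was 7406, 10206, 0 and 4209.7 in the hearts of horses 27, 30, 32 and 34. Entry 2 was listed at 0 in the hearts of horses 27, 30 and 34 and stood at 4558 in that of horse 32. Entry 3 was found in 2 hearts, at 1819 in horse 32 and 5031 in horse 34, and in 0 livers and 0 lungs. The liver of horse 27 was the only one of 4 in which entries 2 and 4 were listed at 0, and there entry 1 was 1992 against 315 to 652 in the others. Entry 2 was above 0 in 4 of 4 lungs, at 326 to 502. Entry 4 (G13A) was 2531 in the heart of horse 32 and 477 to 812 in 3 livers, and was listed at 0 in all lungs. Entry 5 (A18G) was above 0 in all 4 hearts, at 371 to 663. An entry at 0 had fewer than 6 reads under that name.

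Of the 12 entries with the seed, 7 were found in heart alone, and 5 in 1 library alone. Another 4 entries lacked the seed but matched entry 1 with at most 2 substitutions over its 19 bases, and all 4 were found in heart alone. Among all 335 sequence-named entries, 95 (28.4%) were found in heart alone. An entry is listed only from 6 reads, and by the derived reads each heart held at least 89213 of miR-378. A liver held at most 14942 and a lung at most 6595. A rare variant of miR-378 would thus reach the minimum more easily in heart, and the share over all entries does not correct for this. Whether these entries are such variants or other miRNAs with a like sequence was not tested. These counts therefore do not show that the entries are particular to heart. The 4 without the seed carried C2A or, in 1 of them, A1C and C2G, and came to at most 315 normalized counts in a library that held 158695 of miR-378.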

How the data were processed

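Small RNA of 3 tissues from each of 4 horses was measured in 12 libraries. The deposited values are a signal: counts that the authors normalized with DESeq2, each library divided by a size factor. By the paper's methods, sRNAbench had assigned the reads to miRBase entries, with 6 reads as the minimum, whereas the submitters' processing notes name Trimmomatic and BWA. The deposited columns of the authors' own comparison (a log2 fold change and its error, a test score and the p-value, raw and adjusted) were not used.

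The lowest value of a library divided by 6 was taken as its step, of which every value (100%) was a multiple to within 0.01, and reads were derived from it; count tests were not run on these derived reads, since the lowest value standing for 6 reads could not be checked in the table. Known miRNAs that reached 10 normalized counts in 4 or more libraries (256) entered the test. It used limma 3.58.1 (R 4.3.3) with a variance trend on log2(normalized count + 1), 1 fit to the 12 libraries with a mean per tissue, and Benjamini-Hochberg adjustment. The scale understates changes of miRNAs with low values. Shares were compared by exact two-sided permutation tests adjusted over 3 comparisons. The rest was done in Python 3.11.15 (pandas 2.3.3, numpy 2.4.6, matplotlib 3.10.9, scipy 1.17.1).

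miR-378, the lists and the tests were chosen with earlier results of these data known. Named were miR-378, its rank neighbours and the miRNAs above it, up to 3 members of a list by mean level, the 5 most alike by correlation, and entries with its seed. The horse numbers pair the libraries, since 1 number is 1 animal. Deviations from the tissue means correlated between -0.27 and 0.15 in the 12 pairs of the same horse (median -0.057) and between -0.27 and 0.36 in the 36 pairs of different horses (median 0.028). The fit was also tested on simulated data, with independent noise, changes placed in heart alone and no difference in library composition. Changes of 1.5 log2 units were recovered in 76.9% in heart versus liver and 76.6% in lung versus heart. Changes of 3 log2 units were recovered in 91.5% and 90.8%. Of unchanged miRNAs, 0.80% and 0.96% were wrongly called. The simulation does not bear on the choice of scaling. Alternatives were other pseudocounts (0.5 and 10), filters, scalings and denominators, the horse as a block, and each horse and library left out. Not analysed here were eca-miR-126-3p and eca-miR-192.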

Additional observations from a re-analysis of the deposited data

Results flagged for a closer look

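In the lung of horse 34, the share of miR-378 stood apart from the other lungs. It was 0.0592% of known miRNAs there, against 0.0896 to 0.0927% in the others, 0.0564% of all entries, and 0.0611% of known miRNAs outside the muscle and hepatocyte lists. These 3 values come from 1 library and nearly the same reads. Of 21 groups of 4 looked at in this way, 3 were marked, and chance marks about 1 in 20. By the derived reads, that library had the fewest of the lungs (3536536). Of its 3369080 reads of known miRNAs, 1993 were miR-378 (95% Wilson interval of that share 0.0566 to 0.0618%, counting error only). Without it, the log2 fold change of miR-378 was -1.25 in lung versus liver and -5.04 in lung versus heart.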

How the results depend on the processing

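miR-378 kept its direction and its call in all 3 comparisons under all 28 alternatives each. Some of these cannot move its fold change, such as other filters or leaving out a library of the third tissue, and bear only on its error and adjusted p. Its log2 fold change ran from 2.57 to 4.01 in heart versus liver (adjusted p 5.27e-08 to 2.62e-05, limma), from -1.85 to -1.25 in lung versus liver (3.17e-05 to 0.00756) and from -5.54 to -3.88 in lung versus heart (5.46e-09 to 1.04e-05). Leaving out 1 horse or library gave 3.66 to 3.96, -1.66 to -1.25 and -5.54 to -4.93. The call counts stayed within 1.5 times of 120, 132 and 99.

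With the horse as a replicate block, miR-378 stayed called in all 3 comparisons in limma, while the call counts were 116, 131 and 97. Its log2 fold changes of 3.79, -1.48 and -5.27 cannot change with the block, since each horse gave 1 library per tissue. For the shares, the log2 ratios of 2.57, -1.31 and -3.88 likewise cannot change with the block. They had p = 0.125, the smallest that an exact sign-flip test of 4 pairs can give. Without 1 horse these log2 ratios ran from 2.47 to 2.68, -1.39 to -1.22 and -4.03 to -3.75, where 3 against 3 cannot go below p = 0.1 in an exact test.

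Outside the muscle and hepatocyte lists, the mean share of miR-378 was 2.95% in heart and 0.308% in liver, since the denominator is smaller, and its mean rank in liver was 31.2, against 38.5 among all entries and 35.2 among known miRNAs. Leaving out 1 horse gave mean shares of 1.15 to 1.305% in heart, of 0.0799 to 0.0911% in lung, and of 0.190 to 0.214% in liver, and mean ranks of 12.7 to 15, 62 to 66.7 and 34.3 to 36.3. Tests on reads with edgeR or DESeq2 were not run. With 4 horses, small differences between neighbours in rank are not resolved.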
